A study of Caenorhabditis elegans with 2 samples.

Results

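Regions recovered with ZTF-4 between closely spaced genes of the same strand were examined in C. elegans larvae. A region was counted when its summit, the base of strongest enrichment, lay in a gap of at most 1000 bp between neighbouring protein-coding genes that point the same way, on one of the 5 autosomes. Of the 24126 autosomal regions of the list called on both replicates together, 972 (4.03%) met this rule, and the whole list held 30000 regions. They lay in 863 different gaps, of which 760 held 1 such region, 97 held 2 and 6 held 3. Neither the signal of a region nor its reproducibility entered the choice.

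The animals were whole L3 larvae of both sexes of strain OP322, which carries the integrated transgene wgIs322 expressing eGFP-tagged ZTF-4 and the unc-119 allele ed3 on chromosome III. There was 1 group, with 2 biological replicates and no comparison group, and library fragments were selected at 150 to 350 bp. The replicate 1 list held 29249 regions and the replicate 2 list 30000, and the list passed by IDR (irreproducible discovery rate, a filter on rank agreement between replicates) held 704, called IDR regions here. The IDR list was the top of the pooled list by signal. Signal is the authors' own value of enrichment and each list has its own scale, read numbers were not given, and the control was not used here, so whether a region is particular to ZTF-4 was not tested. Whole animals were measured, so a site bound strongly in few cells and one bound weakly in many cannot be told apart.

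Many C. elegans genes are arranged in operons, runs of same-strand genes transcribed from a promoter upstream of the run. Their polycistronic RNA is cut into single mRNAs by 3′ end formation and by trans-splicing, which joins a short spliced leader to an AG acceptor near the start of each gene. The spliced leader SL2 is used mainly at genes inside operons and SL1 at gene starts elsewhere. A short gap between same-strand genes can therefore be an internal joint of an operon or a compact promoter of its own. No operon annotation was used, so the gaps are operon-like by geometry only. ZTF-4 is named for its zinc finger domain, a DNA-binding or RNA-binding fold in many proteins.

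The DNA under 6 of the 7 strongest summits is shown first, because the later results on base composition, sequence words and position in the gap refer to it. The windows reach 50 bp to either side of the summit and are written 5′ to 3′ along the strand of the genes, so the upstream gene ends to the left and the downstream gene begins to the right. The word GACGCA, or its reverse complement TGCGTC, is in capitals where it occurs. Sequences come from the RefSeq genome of assembly WBcel235 (ce11), at chrIII:3867533-3867633 (+ strand) for acs-19 to rpl-3, chrII:10563514-10563614 (- strand) for C06A1.6 to cdc-48.1, chrIII:8443780-8443880 (- strand) for hsp-110 to ufbp-1, chrIV:17249860-17249960 (+ strand) for ZK550.2 to eelo-2, chrV:9546970-9547070 (+ strand) for C50F4.6 to his-37, chrIII:9051428-9051528 (- strand) for R107.5 to ikke-1.
acs-19 to rpl-3: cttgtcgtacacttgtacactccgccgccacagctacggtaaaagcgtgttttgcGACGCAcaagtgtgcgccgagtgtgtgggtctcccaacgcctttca
C06A1.6 to cdc-48.1: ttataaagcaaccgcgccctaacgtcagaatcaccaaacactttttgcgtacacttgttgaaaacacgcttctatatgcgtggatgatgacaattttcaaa
hsp-110 to ufbp-1: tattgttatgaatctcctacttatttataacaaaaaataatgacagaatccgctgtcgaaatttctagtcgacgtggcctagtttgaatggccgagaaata
ZK550.2 to eelo-2: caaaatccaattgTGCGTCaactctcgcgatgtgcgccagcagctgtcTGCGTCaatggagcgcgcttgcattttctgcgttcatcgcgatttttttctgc
C50F4.6 to his-37: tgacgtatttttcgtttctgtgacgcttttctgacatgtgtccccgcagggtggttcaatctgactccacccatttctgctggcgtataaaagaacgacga
R107.5 to ikke-1: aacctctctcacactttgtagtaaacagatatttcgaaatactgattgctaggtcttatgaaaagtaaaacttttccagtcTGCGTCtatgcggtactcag
The windows of rpl-3 and ikke-1 hold 1 copy of the word each, that of eelo-2 holds 2 copies, and those of cdc-48.1, ufbp-1 and his-37 hold none. The window between R12E2.11 and egg-5, the third by signal, is not printed here. It has a GC content of 32.7% and does not hold the word.

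The gaps with an IDR region were rarely very short, and the 4 shortest of them are shown whole because each is all the DNA between the end of one gene and the start of the next. They lie at chrIV:15039552-15039615 (+ strand) for eef-1B.2 to hrpu-1, chrV:18967830-18967904 (- strand) for Y39B6A.42 to Y39B6A.43, chrIV:1012503-1012623 (+ strand) for atg-3 to rbm-39, chrIII:5859180-5859307 (+ strand) for alh-9 to dpf-4.
eef-1B.2 to hrpu-1: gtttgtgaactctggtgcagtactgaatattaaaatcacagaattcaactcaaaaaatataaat
Y39B6A.42 to Y39B6A.43: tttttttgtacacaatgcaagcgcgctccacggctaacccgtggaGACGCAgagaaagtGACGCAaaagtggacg
atg-3 to rbm-39: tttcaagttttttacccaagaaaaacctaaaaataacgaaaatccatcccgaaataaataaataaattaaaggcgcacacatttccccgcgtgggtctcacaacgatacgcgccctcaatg
alh-9 to dpf-4: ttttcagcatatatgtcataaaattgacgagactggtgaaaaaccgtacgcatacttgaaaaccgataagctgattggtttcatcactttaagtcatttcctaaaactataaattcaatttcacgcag
The gap of Y39B6A.42 and Y39B6A.43 holds GACGCA at more than one place. The summit window of the gap of eef-1B.2 and hrpu-1 also holds the word, but outside the gap itself. The gap of alh-9 and dpf-4 ends in AG, the last bases before the annotated start of dpf-4.

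The strongest region lay upstream of rpl-3, which encodes a protein of the large ribosomal subunit. It had a signal of 265.4 in the pooled list, 70.9 in replicate 1 and 194.9 in replicate 2, at ranks 11, 5 and 13 of these lists. It spanned chromosome III 3867445 to 3867714 in a gap of 755 bp behind the acyl-CoA synthetase gene acs-19, with its summit 271 bp before the annotated 5′ end of rpl-3. It was thus strong in both replicates.

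The next regions were at genes of varied function. The region between C06A1.6 and cdc-48.1, an AAA ATPase gene, had signals of 158.6 in the pooled list, 42.5 in replicate 1 and 121.7 in replicate 2, 157 bp before the 5′ end of cdc-48.1. The region between R12E2.11 and egg-5, a gene that acts in the egg-to-embryo transition, had 152.1 pooled, 53.1 in replicate 1 and 102.6 in replicate 2, and its summit lay only 60 bp past the 3′ end of R12E2.11 and 789 bp before egg-5. Both regions ranked between 14 and 29 in each of the 3 lists.

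The region between hsp-110, a chaperone gene of the Hsp110 family, and ufbp-1 was less even between replicates. Its signal was 140.9 pooled, 18.9 in replicate 1 and 127.1 in replicate 2, and its rank was 309 in replicate 1 and 22 in replicate 2. The region upstream of the histone H4 gene his-37 (pooled 92.6, replicate 1 28.5, replicate 2 64.5) lay 85 bp before the annotated 5′ end. The region between nurf-1, a nucleosome remodelling factor gene, and F26H11.4 (pooled 87.9, replicate 1 45.2, replicate 2 67.1) lay 31 bp past the 3′ end of nurf-1. The strongest summits were thus found at either end of gaps as well as inside them.

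Neighbouring gaps of one run could both hold strong regions. The gap between psf-3, a gene for a GINS replication complex subunit, and icd-2, which encodes the alpha subunit of the nascent polypeptide-associated complex, had a region with signals of 82.3 pooled, 16.5 in replicate 1 and 65.9 in replicate 2. The next gap, between icd-2 and the HECT ubiquitin ligase gene wwp-1, had one with 81.2 pooled, 17.0 in replicate 1 and 70.7 in replicate 2. The gap between hsp-12.3 and F38E11.9 alone held 2 IDR regions, with pooled signals of 64.7 and 44.6.

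The other regions among the 25 strongest had pooled signals between 54.7 and 94.2. They included those between hsp-6, a mitochondrial Hsp70 gene, and adss-1 (70.3), upstream of the RNA-binding protein genes fust-1 (63.4) and sqd-1 (59.6), between the beta-catenin gene sys-1 and the translation initiation factor gene eif-3.C (58.2), between the laminin gene lam-1 and W03F8.4 (58.0), upstream of the lipoic acid synthase gene lias-1 (57.3) and between the cyclophilin gene cyn-3 and Y75B12B.11 (56.3). The largest difference in rank between replicates among the 25 was at mnk-1 and pro-1 (61.6 pooled), which had 6.41 at rank 4940 in replicate 1 and 57.1 at rank 91 in replicate 2. The region between the Atg8-family gene lgg-1 and C32D5.8 (54.7 pooled) had 45.6 in replicate 2 and no partner in replicate 1.

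Regions in short same-strand gaps passed IDR more often than autosomal regions as a whole. Of the 972, 72 (7.41%, Wilson 95% interval 5.92 to 9.23) were IDR regions, in 71 gaps, against 474 of the 23154 other autosomal regions (2.05%, 1.87 to 2.24), and the share over all autosomal regions was 2.26%. The difference was 5.36 percentage points (Newcombe 95% interval 3.86 to 7.19). Taking the 704 strongest regions of each replicate's own list in place of the IDR list, 56 of 874 (6.41%) regions in these gaps qualified in replicate 1 against 2.12% of other regions (2.28% of all), and 69 of 949 (7.27%) in replicate 2 against 2.09% (2.29% of all). The difference between regions in short same-strand gaps and the others exceeded the spread between replicates. These intervals cover counting error over regions, which share the same libraries, and do not measure variation between animals. With the stronger 50% of the IDR list as the call, 4.22% and 0.959% qualified, a difference of 3.26 points.

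Distance between the genes and their orientation both went with the IDR share. The 7.41% in short same-strand gaps stood against 87 of 4238 regions in same-strand gaps above 1000 bp (2.05%, 1.67 to 2.53), a difference of 5.35 points (3.80 to 7.21). Counting only the strongest region of each gap narrowed this to 3.42 points (8.23% of short gaps against 4.81% of long ones). Short same-strand gaps stood below divergent gaps of at most 1000 bp, where both genes start at the gap, with 7.41% against 62 of 528 regions (11.7%, 9.27 to 14.8), a difference of −4.34 points (−7.71 to −1.26). In the strongest regions of replicate 1 the 2 shares were 6.41% in same-strand and 9.41% in divergent gaps, a difference of −3.00 points, and in those of replicate 2 they were 7.27% and 9.40%, a difference of −2.13 points whose interval (−5.28 to 0.731) included 0.

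Convergent gaps of at most 1000 bp, where both genes end, had a share whose difference from the same-strand ones depended on the call used. Same-strand gaps had 7.41% IDR regions and convergent gaps 12 of 222 (5.41%, 3.12 to 9.21), a difference of 2.00 points (−2.08 to 4.92). With the stronger 50% of the IDR list as the call, the shares were 4.22% and 1.35% (3 of 222), a difference of 2.87 points with an interval of 0.0960 to 4.57 that did not include 0. The direction depended on the replicate. In replicate 2 the shares were 7.27% and 3.60% (3.67 points, 0.00736 to 6.21), and in replicate 1 they were 6.41% and 7.62% (−1.22 points, −5.70 to 2.13).

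**Figure D1:**
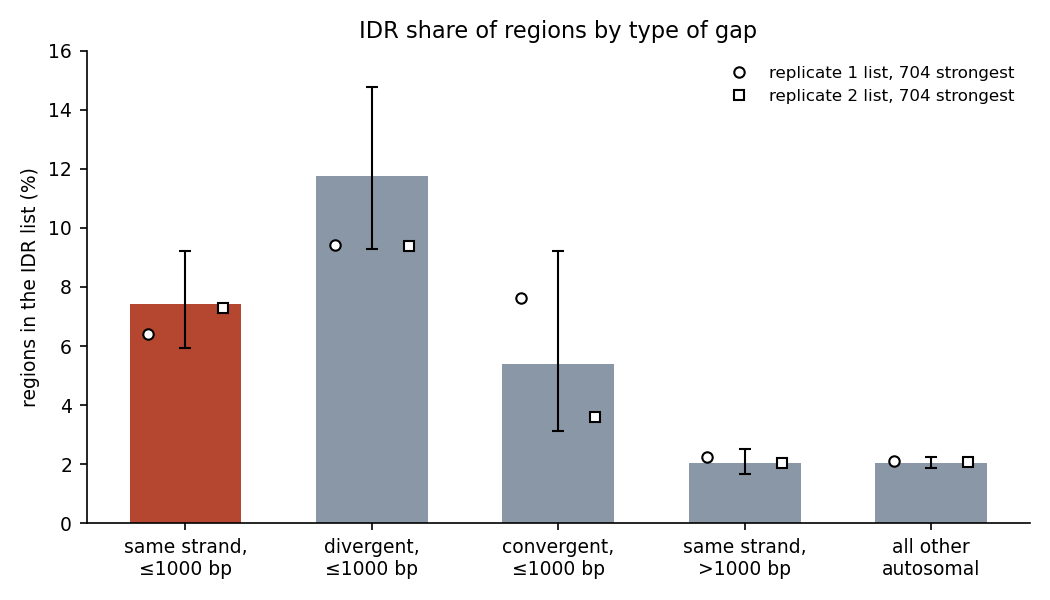
Share of regions that passed IDR (y axis, percent) by the kind of gap that holds the summit (x axis). Bars give the pooled list with Wilson 95% intervals. Circles and squares give, for replicate 1 and replicate 2, the share of that list's regions in each kind of gap that were among its 704 strongest. Same-strand gaps of at most 1000 bp stood at 7.41%, above long same-strand gaps and all other autosomal regions (both 2.05%) and below short divergent gaps (11.7%).

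Per length of DNA the order was the same. The short same-strand gaps covered 2009 kb, 2.43% of autosomal sequence, and held 484 regions and 35.8 IDR regions per Mb. Divergent gaps of at most 1000 bp held 658 and 77.2 per Mb, convergent ones 398 and 21.5, same-strand gaps above 1000 bp 301 and 6.19, and the autosomes as a whole 292 and 6.61. Short same-strand gaps thus contributed 13.2% of the 546 autosomal IDR regions.

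Signal was higher in these gaps too. The IDR list is the top of the pooled list by signal, so this is not a result separate from the IDR share. The median pooled signal was 11.99 (quartiles 8.22 and 18.8, range 5.81 to 265.4) against 9.41 for other autosomal regions (quartiles 7.28 and 13.4). In replicate 1 the medians were 4.22 and 3.58, and in replicate 2 they were 9.26 and 7.70. Divergent short gaps had a median of 14.2 and convergent ones of 10.7. The ranges overlapped almost entirely, since most regions in either set were weak. The weakest IDR region of the same-strand gaps had a signal of 36.4, between Y71F9B.13 and sop-3. The strongest region that did not pass had 35.8, as the cut on signal requires.

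The share differed with the length of the gap. Gaps of 1 to 200 bp held 144 regions, of which 4 passed IDR (2.78%, 1.09 to 6.92). Gaps above 200 and up to 500 bp held 338, of which 33 passed (9.76%, 7.04 to 13.4), and gaps above 500 and up to 1000 bp held 490, of which 35 passed (7.14%, 5.18 to 9.77). The middle class had the highest share and the shortest class the lowest, with intervals that did not overlap. The replicates gave the same order, with 1.64%, 9.43% and 5.71% among the strongest regions of replicate 1 and 2.94%, 9.46% and 7.06% in replicate 2.

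The longest class exceeded the shortest by 4.37 points, with an interval from −0.22 to 7.49 that included 0. This difference was 1.88 points with the stronger 50% of the IDR list and 2.88 points when genes of every biotype bounded the gaps, and it was 5.72 points (0.954 to 9.29) when only the strongest region of each gap was counted. Median signals were 11.3, 14.1 and 11.3 in the 3 classes from short to long. Within the whole set, Spearman's rho between signal and gap length was −0.07 over the 972 regions and −0.06 over the 72 IDR regions, which describes signal and not the share. In steps of 100 bp the share was 4.44% and 2.02% in the shortest 2 steps, between 8.06% and 10.9% in the next 4, up to a gap of 600 bp, and then 5.88%, 9.09% and 7.95%. In the last step, above 900 bp, it was 2.91% (3 of 103, 0.995 to 8.22), near the 2.78% of the shortest class. With about 100 regions or fewer in most steps, the intervals of neighbouring steps overlapped.

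Gaps of 1 to 200 bp were also less often marked at all. Of 5034 autosomal same-strand gaps of at most 1000 bp, 17.1% had a region and 1.41% an IDR region. By class from short to long, 144 of 1737 gaps (8.29%), 319 of 1525 (20.9%) and 400 of 1772 (22.6%) had a region, and 0.230%, 2.16% and 1.92% had an IDR region. Per Mb of gap the order turned round for regions of any strength, with 780, 642 and 377 per Mb, while IDR regions numbered 21.7, 62.7 and 27.0 per Mb. Regions had a median width of 370 bp, more than the whole of any gap in the shortest class, so there a region reaches into the flanking genes.

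**Figure D2:**
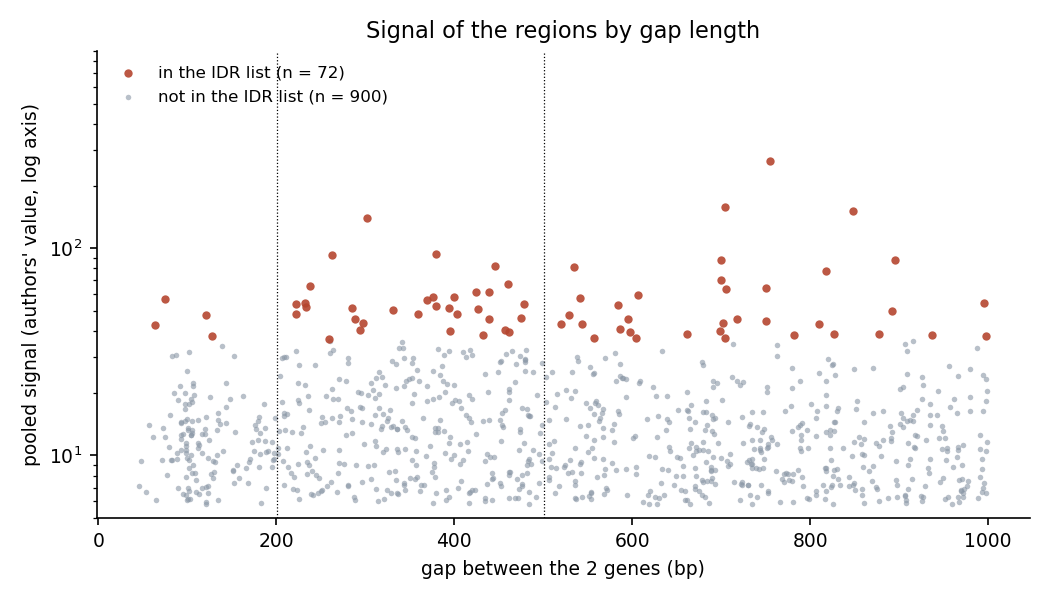
Pooled signal (y axis, log scale, the authors' value) of the 972 regions against the length of the gap in bp (x axis). Large points passed IDR (n = 72), small points did not (n = 900), and dotted lines separate the 3 length classes. Only 4 regions in gaps of 200 bp or less passed, and the strongest, at 265.4, lay in a gap of 755 bp.

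At the edge of the rule, the longest gaps counted were those between let-418 and srh-76 (999 bp, signal 20.6) and between dod-6 and T20G5.8 (999 bp, signal 11.6). The next, of 998 bp, lay between ZK632.10 and ZK632.9 (signals 37.9, an IDR region, and 23.3), C10G11.6 and pnk-1 (18.3 and 10.5) and fbxa-1 and Y54F10BM.9 (6.60). The first same-strand gap beyond the limit, between C05C10.2 and pho-11 (1002 bp), held 3 regions with signals of 11.6, 8.17 and 8.17.

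Runs of consecutive short same-strand gaps, the shape an operon of several genes has, had shares of IDR regions whose intervals overlapped that of single gaps. In runs of 3 or more gaps 24 of 296 regions passed IDR (8.11%, 5.51 to 11.8), in runs of 2 gaps 21 of 254 (8.27%, 5.47 to 12.3) and in single gaps 27 of 422 (6.40%, 4.43 to 9.15). Long runs included the gaps upstream of lias-1, sqd-1 and eif-3.C named above. Every autosome contributed, with 19 IDR regions on I (9.05% of the regions in these gaps), 18 on II (9.57%), 11 on III (5.82%), 13 on IV (7.03%) and 11 on V (5.50%), against 1.63% to 2.62% over all regions of these chromosomes.

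Regions in short same-strand gaps were matched between replicates more often than autosomal regions as a whole, but less often than those in short divergent gaps. A partner was the reciprocally nearest summit within 100 bp. Of the 972, 321 (33.0%) had a partner in both replicate lists, against 19.9% of other autosomal regions and 20.4% of all autosomal regions, a difference of 13.1 points (10.2 to 16.2). For replicate 1 alone the shares were 46.3% and 36.1% (10.2 points), and for replicate 2 alone 73.8% and 67.3% (6.42 points). The difference had the same direction in both libraries, and partners were more common in replicate 2 throughout.

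Among the 72 IDR regions of these gaps, 62 (86.1%) had partners in both replicates, 4 in replicate 1 only and 6 in replicate 2 only, and none lacked both. Of the other 474 autosomal IDR regions, 83.8% had both, and of the 62 in short divergent gaps 60 did (96.8%, 89.0 to 99.1). Among each replicate's own 704 strongest regions, 32 of the 72 (44.4%) had a partner in replicate 1 and 58 (80.6%) in replicate 2, with 24 in both, against 50.2% and 74.1% of the other IDR regions. The 4 matched in replicate 1 only were those between rsp-6, an SR splicing factor gene, and imp-3 (51.9 pooled, 23.0 in replicate 1), W08E12.8 and W08E12.7 (46.1 and 20.4), K10C3.5 and the nuclear receptor gene nhr-49 (40.8 and 18.5), and ZK632.10 and ZK632.9 (37.9 and 30.7).

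Replicate signals went together over the 321 matched regions, with Spearman's rho of 0.533, which describes regions that share libraries. Within the 62 matched IDR regions rho was 0.276, and within the 259 others it was 0.309. The IDR list is a cut on pooled signal, which draws on both replicates, and such a cut can lower rho within each part. The region between K07B1.7 and tos-1, like those of mnk-1 and hsp-110 above, ranked far lower in replicate 1 (signal 12.0, rank 1048) than in replicate 2 (signal 66.1, rank 59).

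**Figure D3:**
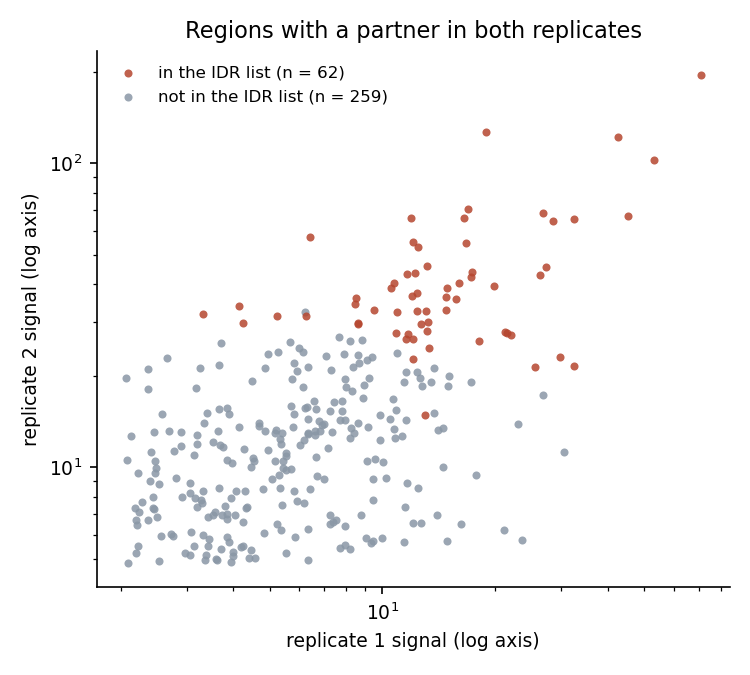
Signal in replicate 1 (x axis) and replicate 2 (y axis), both log scales with the lists' own units, of the 321 regions with a partner in both lists. IDR regions (n = 62) tended to the upper right and the others (n = 259) to the lower left, and the cut on pooled signal enters this split. Single regions went the other way in replicate 1. The IDR region between icl-1 and fbxb-72 had 3.32 there, and the region between F26F12.3 and F26F12.2, which did not pass, had 30.6. The scatter inside each set was broad (rho 0.276 and 0.309).

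The summits of IDR regions lay less often in the part of the gap nearer the downstream gene. Of the 72, 26 (36.1%, 26.0 to 47.7) lay nearer the 5′ end of the downstream gene than the 3′ end of the upstream one, against 448 of the 900 regions that did not pass (49.8%, 46.5 to 53.0), a difference of −13.7 points (−24.3 to −1.68). The strongest regions of replicate 1 gave 28.6% against 53.4% (−24.9 points), and those of replicate 2 37.7% against 49.3% (−11.6 points, −22.6 to 0.611). The interval also included 0 with the stronger 50% of the IDR list (−10.2 points, −23.9 to 5.41) and with gaps bounded by genes of every biotype (−9.80 points, −21.9 to 3.49). The direction was the same under each of these settings. By gap length, 10 of 33 IDR summits in the middle class lay nearer the downstream gene (30.3%, 17.4 to 47.3). The others there had 51.5% (45.9 to 57.0). In the longest class the shares were 13 of 35 (37.1%, 23.2 to 53.7) and 45.9% (41.4 to 50.5). Within each of these classes the intervals overlapped.

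Most IDR summits stood off the annotated ends of both genes. Their median distance was 268.5 bp to the downstream 5′ end and 158.5 bp to the upstream 3′ end, against 215.5 bp and 205.5 bp for the other regions. Only 10 of 72 (13.9%) lay within 100 bp of the downstream 5′ end, against 28.8% of the others, and 15 (20.8%) within 100 bp of the upstream 3′ end, against 26.4%. Gap length enters these counts, since 140 of the 900 others and 4 of the 72 lay in gaps of 1 to 200 bp. Within 100 bp of the upstream 3′ end, the middle class had 24.2% of IDR summits and 26.2% of the others. The longest class had 8.57% and 10.8%. For the downstream 5′ end the shares were 15.2% and 29.5% in the middle class and 2.86% and 10.3% in the longest. In the band between 100 and 200 bp past the upstream 3′ end there were 31 of 72 (43.1%), against 206 of 900 (22.9%), and between 200 and 300 bp before the downstream 5′ end 22 (30.6%), against 17.2%. These bands were chosen after their values were seen. In gaps of the middle class, where the 2 bands can overlap, the first held 22 of 33 IDR summits (66.7%) and 31.5% of the others, and in the longest class 9 of 35 (25.7%) and 17.4%. The shortest class, with only 4 IDR summits, went the other way: 0 of 4 lay in that band against 31 of 140 (22.1%), and 3 of 4 lay nearer the downstream gene against 82 of 140 (58.6%).

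**Figure D4:**
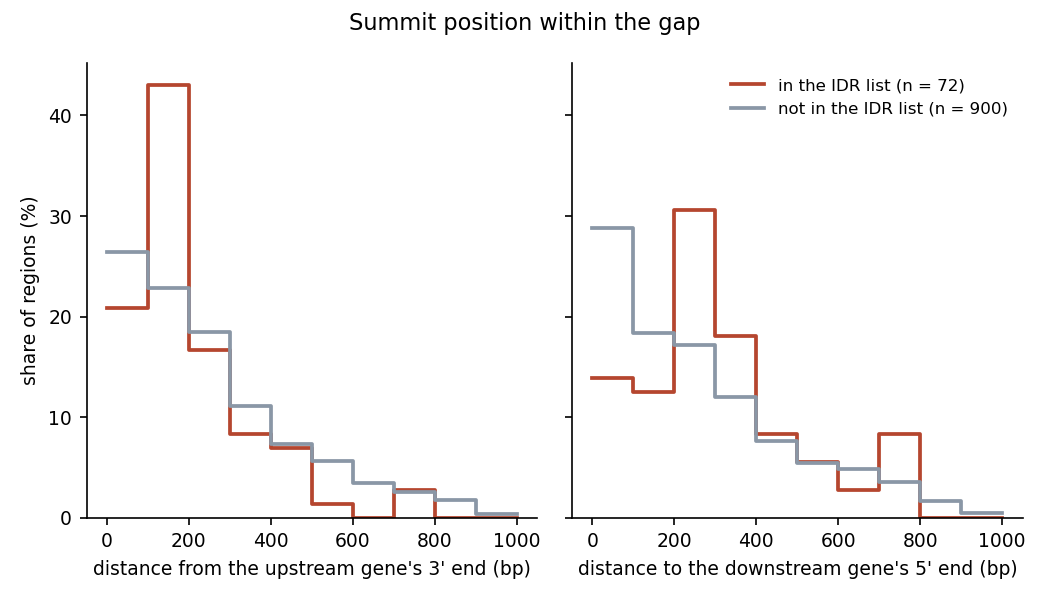
Share of regions (y axis, percent) by the distance of the summit from the 3′ end of the upstream gene (left) and to the 5′ end of the downstream gene (right), in steps of 100 bp. IDR regions (n = 72) peak between 100 and 200 bp from the upstream gene (43.1%) and between 200 and 300 bp from the downstream gene (30.6%), the others (n = 900) next to either gene.

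The word GACGCA was more frequent near IDR summits of these gaps. It was found in earlier work on these same data, so its frequency is a description and supports nothing. On either strand within 50 bp of the summit, 17 of 72 IDR regions (23.6%) held it, as at rpl-3, eelo-2 and ikke-1 in the windows above, against 41 of the 900 regions that did not pass (4.56%) and 798 of all 24126 autosomal regions (3.31%). The difference within the gaps was 19.1 points (10.6 to 30.1), and it was 9.03 points (1.95 to 20.6) with the strongest regions of replicate 1 and 18.9 with those of replicate 2. The other autosomal IDR regions held the word in 79 of 474 windows (16.7%). Among them, those in divergent gaps of at most 1000 bp held it in 18 of 62 (29.0%). Over regions of any strength the shares were 10.4% in short divergent gaps and 5.97% in short same-strand ones. The word was thus not particular to same-strand gaps.

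The 17 regions held 20 copies, 11 along the strand of the genes and 9 against it, at a median of 26 bp from the summit. Base composition also differed between IDR regions and others. The median GC content of the summit windows was 45.0% in IDR regions of these gaps and 32.2% in the other regions of these gaps. It was 46.5% in the other autosomal IDR regions, 50.5% in those of short divergent gaps, and 33.7% over all autosomal regions. Windows with and without the word were not compared. The part of base composition in the frequency of the word was not tested. Besides the windows printed, the word was present at tos-1, fust-1, eif-3.C, W03F8.4, lsm-6, egl-30, rpl-41.2 and tomm-20, among others, and absent from the windows at cdc-48.1, ufbp-1 and his-37.

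An annotated 5′ end that directly follows AG is what a trans-splice acceptor leaves, and this was read from the sequence of every gap. It was the case for the downstream gene of 42 of the 71 gaps with an IDR region (59.2%), against 329 of the 792 gaps with weaker regions only (41.5%), a difference of 17.6 points (5.49 to 28.8). Gaps with no region had 29.8%, and all 5034 gaps 32.0%. The longer TTTCAG preceded 32.4%, 20.5% and 13.0% of the starts in gaps with an IDR region, with weaker regions only and over all gaps. The strongest regions of replicate 1 gave 54.7% against 41.0% (13.7 points, −0.033 to 26.8) and those of replicate 2 57.4% against 43.4% (14.0 points).

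This difference did not hold for the strongest regions. With the stronger 50% of the IDR list the shares were 41.5% and 43.1%, a difference of −1.60 points (−15.7 to 13.9). With gaps of up to 500 bp it was 8.75 points (−7.63 to 24.4). Gap length moves with the measure in all gaps, with AG at 45.6%, 27.5% and 22.6% of starts from the shortest to the longest class. Within classes, a split added after seeing the data, gaps with an IDR region and gaps with weaker ones had AG at 1 of 4 and 69 of 140 starts in the shortest class, at 57.6% and 43.4% in the middle one, and at 64.7% and 37.2% in the longest one.

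Genes for small structural RNAs lay beside some of the IDR summits. Of the 72, 11 (15.3%, 8.75 to 25.3) had a tRNA, snoRNA or snRNA gene within 250 bp, a distance chosen after seeing the data, against 12 of the 900 regions that did not pass (1.33%). Among the other autosomal IDR regions it was 11.0%, so it was not particular to these gaps. The share over all autosomal regions is not given here. The 11 were 5 with a snoRNA gene, 4 with an snRNA gene and 2 with a tRNA gene. The region between R12E2.11 and egg-5 lay 63 bp from sls-2.4, whose product is an SL2 RNA, and both IDR regions between hsp-12.3 and F38E11.9 lay 64 and 17 bp from the snRNA gene F38E11.11.

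The snoRNA genes were Y75B12B.12 between cyn-3 and Y75B12B.11, which held the summit itself, T02E1.9 at 52 bp (spe-12 and T02E1.2), Y53F4B.47 at 80 bp, F59C6.15 at 43 bp and Y53F4B.48 at 30 bp. In all, 18 of the 972 summits lay inside an annotated non-coding gene, 4 of them IDR regions. The share of such summits over all autosomal regions is not given here, so this count is a description only. Besides Y75B12B.12, the other 3 IDR regions with the summit in a non-coding gene were in Y65B4BR.10 between icd-2 and wwp-1 (81.2), C52E4.14 between the proteasome gene rpt-1 and the Sm protein gene snr-4 (43.1), and F09E5.22 between prdx-2 and pkc-3 (39.9). When genes of every biotype bounded the gaps, 58 of 889 regions passed IDR (6.52%), against 2.10% of others.

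Genes downstream of marked gaps were grouped by 15 lists of gene names, which were drawn up with earlier results of these data known, so their counts are descriptions without a test. Gap length differed between lists and was not held equal. The median gap was 541 bp upstream of cytosolic ribosomal protein genes, 519 bp for chemoreceptors and 349 bp for all gaps. For mitochondrial ribosomal proteins it was 110.5 bp and for the proteasome 118 bp. Small GTPases and trafficking had 119 bp and aminoacyl-tRNA synthetases 125.5 bp. Gaps of 1 to 200 bp had a region in only 8.29% and an IDR region in 0.230%, as above. Among the lists, gaps upstream of cytosolic ribosomal protein genes most often held a region of any strength: 17 of 22 (77.3%) had a region and 5 (22.7%) an IDR region, against 17.1% and 1.41% of all gaps. The 19 regions there had a median signal of 25.2, against 11.99 for the whole set, and 14 had partners in both replicates. Besides rpl-3, the IDR regions lay upstream of rpl-14 (43.2 pooled, 12.7 in replicate 1, 29.6 in replicate 2), rpl-41.2 (39.9, 4.15 and 33.8), rps-11 (38.0, 13.0 and 14.8) and rpl-6 (38.0, 5.24 and 31.5). Where a ribosomal protein gene was the upstream one, 8 of 33 gaps (24.2%) had a region, as between rpl-27 and the Gq alpha gene egl-30 (54.0 pooled, 29.9 in replicate 1, 23.1 in replicate 2).

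Upstream of translation factor genes 5 of 11 gaps had a region and 2 an IDR region, at eif-3.C and eif-3.J (38.6 pooled, 40.2 in replicate 2, no partner in replicate 1). Upstream of genes for splicing and RNA-binding proteins it was 5 and 2 of 12, at snr-4 and at hrpu-1, a gene of the hnRNP U family. Chaperone genes had 5 and 1 of 16, and as upstream genes 11 and 3 of 26, including hsp-110, hsp-6 and hsp-12.3. Histone genes had 1 of 4 (25%), the IDR region at his-37, a higher share of IDR regions than at ribosomal protein genes but from a single gap. Oxidative phosphorylation genes had 6 and 1 of 20, with the IDR region at cyc-1, the cytochrome c1 gene (40.4 pooled, 8.60 in replicate 1, 29.6 in replicate 2).

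The remaining lists had few or no IDR regions upstream of their genes, some of them with the short median gaps given above. With a region, there were 4 of 9 gaps for the proteasome, 2 of 6 for the vacuolar ATPase, 8 of 24 for small GTPases and trafficking, 8 of 30 for collagens, 2 of 8 for RNA polymerase subunits, 2 of 12 for aminoacyl-tRNA synthetases and 5 of 32 for mitochondrial ribosomal proteins, and none of these gaps had an IDR region. A count of 0 in the 32 gaps of the last list allows a share of up to 10.7% (Wilson 95% upper limit), far above the 1.41% of all gaps. The strongest region next to a mitochondrial ribosomal protein gene, mrpl-32, had a signal of 31.5, with 14.0 in replicate 1 and 6.99 in replicate 2. Nuclear hormone receptor genes had 14 of 72 gaps with a region (19.4%), near the share of all gaps, and 1 with an IDR region, at nhr-49. Chemoreceptor genes had 24 of 412 (5.83%) and 1, between the cathepsin L gene cpl-1 and srh-269 (47.5), where a tRNA gene lay 75 bp from the summit.

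**Figure D5:**
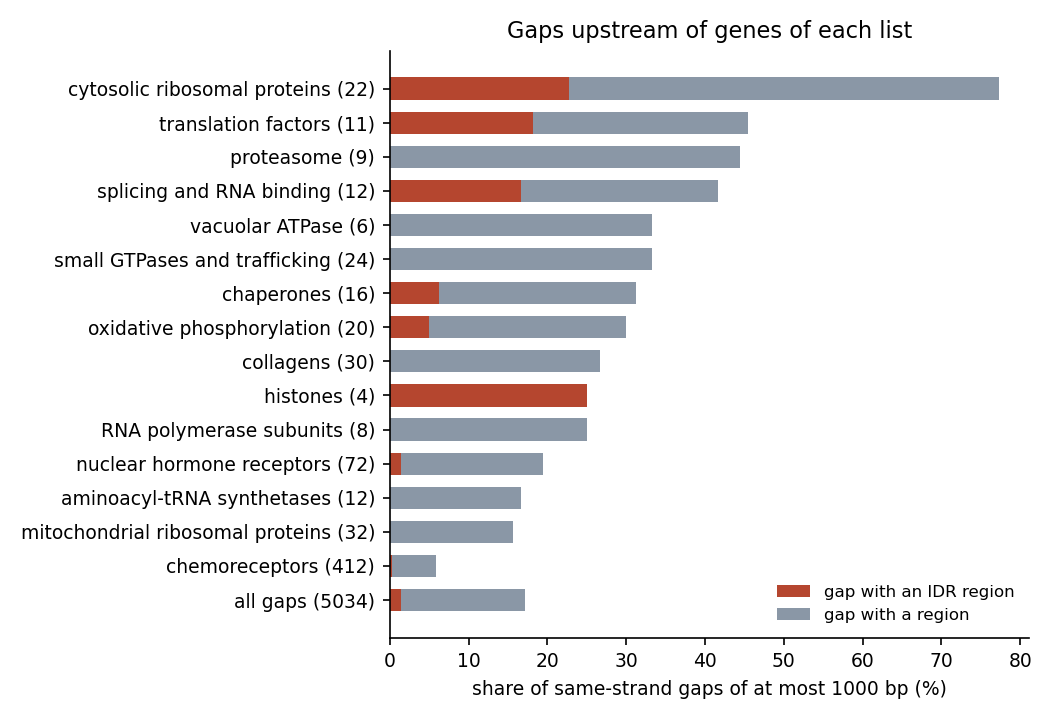
Share of same-strand gaps of at most 1000 bp (x axis, percent) with any region (light bars) and with an IDR region (dark bars), by the list that holds the gene downstream of the gap, with the number of gaps in parentheses. Gaps upstream of cytosolic ribosomal protein genes stood at 77.3% and 22.7%, against 17.1% and 1.41% of all gaps, and those upstream of chemoreceptor genes at 5.83% and 0.243%. Gap length differs between the lists and was not held equal.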

How the data were processed

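Peak lists of eGFP-tagged ZTF-4 ChIP-seq from 2 biological replicates were used as deposited, in the ce11 build. Per the deposited inventory text, a list was called on each replicate's alignments and another on both together, each with a control. The IDR threshold, aligner and peak caller are not given in the sources used here. The deposited lists give a signal per region, the authors' enrichment value, which was used only within a list, and −log10 q-values, which had a ceiling and were not used for ranking. Read depth is unknown.

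Gaps were drawn between merged protein-coding genes of Ensembl release 115 (WBcel235), ignoring non-coding genes, and coordinates are 1-based. A region counted as IDR when the IDR list held the same interval and summit. Shares carry Wilson 95% intervals and differences Newcombe 95% intervals. No p-values were computed across regions, and each replicate's own 704 strongest regions gave the spread between replicates. Scripts were tested on simulated data and ran with matplotlib 3.10.9, scipy 1.17.1, pandas 2.3.3 and numpy 2.4.6 under Python 3.11.15.

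Named were the 25 strongest regions, up to 3 per gene list by signal, those at the edge of the length limit, those with the most regions in a gap, and 5 in non-coding genes. Other genes were named after their values were seen. Gene lists were matched by symbol. The rpa- symbols, which name replication protein A genes in C. elegans, were left out of the RNA polymerase list after seeing the data, and its counts upstream of genes were the same with them. The set of regions, the lists and the measures were chosen with earlier results of these data known. Alternatives were the stronger 50% of the IDR list (352 regions), the strongest region of each gap, genes of any biotype, region midpoints, a limit of 500 bp, partners within 50 bp or by overlap, a window of 100 bp, each replicate alone and, added after seeing the data, each autosome left out.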

Additional observations from a re-analysis of the deposited data

How the results depend on the processing

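Differences are in percentage points. With the stronger 50% of the IDR list as the call, the difference in share was 3.259 against other autosomal regions, −2.979 against divergent short gaps, 3.180 against long same-strand gaps, 1.876 between the longest and shortest class, and −1.602 for AG before the 5′ end. The last turned its sign and the cause was not tested. Fewer regions can qualify under that setting by construction. Gaps bounded by genes of any biotype gave 4.424 against other regions, 4.302 against long gaps and 2.877 between classes. The strongest region per gap gave 3.417 against long gaps and 5.722 between classes, and midpoints gave 3.925 between classes. A limit of 500 bp gave 8.749 for AG and a median signal difference of 3.576, TTTCAG gave 11.94, and partners within 50 bp gave 9.958. With either replicate left out, the ranges were 4.285 to 5.185 against other regions, −3.000 to −2.128 against divergent gaps, −1.216 to 3.667 against convergent gaps, 4.181 to 5.243 against long gaps, 4.075 to 4.115 between classes, 6.421 to 10.18 for partners, −24.85 to −11.64 for position, 9.029 to 18.87 for GACGCA and 13.71 to 14.00 for AG. Besides these, leaving out each autosome in turn kept the difference against other regions between 4.895 and 5.873. Read depth was not known, and 4 IDR regions in the shortest gaps limit what can be said of that class.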

Other observations

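The X chromosome was outside the set described. Its same-strand gaps of at most 1000 bp held 126 regions, of which 8 passed IDR (6.35%, Wilson 95% interval 3.25 to 12.0), against 124 of the 5720 other X regions (2.17%, 1.82 to 2.58). Their median signal was 11.6, against 9.38 for other X regions, and 35.7% had partners in both replicates, against 19.7%. No difference between X and the autosomes was tested.

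In 6 gaps there were 3 regions each, and none of these regions passed IDR. The gap between K12C11.7 and smo-1, the SUMO gene, had pooled signals of 21.4, 15.2 and 13.7, that between har-1 and glod-4 had 18.4, 16.2 and 9.35, and that between crls-1 and F23H11.4 had 12.5, 11.9 and 10.5. The other 3 lay between R144.13 and pcf-11 (26.3, 11.6 and 7.35), pnp-1 and T21D12.7 (24.1, 11.0 and 6.27) and Y32H12A.6 and paqr-2 (11.2, 6.56 and 6.29).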
